A study of Mus musculus with 2 samples.

Results

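Glucocorticoid and atrophy response genes were followed in mouse calf muscle as 10 named genes: Cebpb, Cebpd, Sgk1, Tsc22d3, Arrdc2, Depp1, Gadd45g, Trim63, Fbxo32 and Lpin1. They are 10 of the 15747 annotated genes with a read, and all 10 are among the 8973 genes that reached 10 reads over both libraries together. The genes were chosen by the difference in their reads between the libraries, so that difference is a description here and carries no test. Both libraries are long-read RNA-seq of total RNA from gastrocnemius of 14-day-old females of B6CASTF1/J, a cross of C57BL/6 with CAST mice. They form 1 group of 2 biological replicates, with 2 µg of starting RNA each and no treatment, fasting state or hormone level in the labels. For replicate 1 the biosample label speaks of 3 females and for replicate 2 of 1 female, both under the same donor entry. The sample description is the same for both libraries and names females in the plural. Whether RNA was pooled is not stated in the labels. A possible difference in the number of animals cannot be told apart from the difference between the libraries. Muscle identity was checked with 6 fibre genes (Acta1, Ckm, Myh4, Mylpf, Tnnt3 and Pvalb), all of which had reads in both libraries and which summed to 181575 and 187853 CPM. Of these, Mylpf, Tnnt3 and Pvalb were at least 2-fold higher in replicate 2 (log2 ratios of replicate 1 to replicate 2 of -1.03, -1.196 and -1.196), and Myh4 had a ratio of 0.74.

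Glucocorticoids bind the glucocorticoid receptor, a transcription factor that enters the nucleus and switches on target genes through short palindromic elements. In skeletal muscle, glucocorticoids, fasting and disuse are known to raise a shared set of genes, in part through the FOXO and C/EBP transcription factors. Products of this set include the muscle ubiquitin ligases MuRF1 (Trim63) and atrogin-1 (Fbxo32), which mark proteins for breakdown by the proteasome.

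The starts and exons that carry the splice results below came from GENCODE M21, and the promoters from RefSeq (GRCm38.p6), all on mm10 and written 5′ to 3′. The first coding stretches of Sgk1 and Tsc22d3 are shown because these alternative starts were counted apart, with the start codon in capitals.
Sgk1 main start (chr10:21994750-21994825, plus strand): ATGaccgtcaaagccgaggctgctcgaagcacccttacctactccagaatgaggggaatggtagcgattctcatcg
Sgk1 upstream start (chr10:21994064-21994181, plus strand): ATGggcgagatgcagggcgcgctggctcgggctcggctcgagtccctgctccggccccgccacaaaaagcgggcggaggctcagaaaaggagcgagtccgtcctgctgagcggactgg
Sgk1 far upstream start (chr10:21992374-21992407, plus strand): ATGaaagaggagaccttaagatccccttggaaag
Tsc22d3 proximal exon (chrX:140542846-140542967, minus strand): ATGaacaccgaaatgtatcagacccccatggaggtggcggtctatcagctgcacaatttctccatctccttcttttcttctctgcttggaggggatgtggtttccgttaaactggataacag
Tsc22d3 distal exon (chrX:140598142-140598441, minus strand): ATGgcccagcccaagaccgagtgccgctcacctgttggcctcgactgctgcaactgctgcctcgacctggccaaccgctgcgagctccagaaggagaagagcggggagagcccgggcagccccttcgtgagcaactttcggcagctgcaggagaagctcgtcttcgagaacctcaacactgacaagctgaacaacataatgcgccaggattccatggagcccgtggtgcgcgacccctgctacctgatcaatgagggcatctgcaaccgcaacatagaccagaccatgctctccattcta
Tsc22d3 shared exon (chrX:140542105-140542156, minus strand): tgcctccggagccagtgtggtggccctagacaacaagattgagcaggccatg
The Sgk1 stretches hold 76, 118 and 34 bases, and each leaves 1 base after whole codons, so all join the common second exon in the same frame. The Tsc22d3 stretches hold 122 and 314 bases, of which the first 300 of the distal one are printed, and each leaves 2 bases, so both join the shared exon of 52 bases in the same frame.

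Internal exons of Lpin1 and Trim63 are shown because reads used them in more than 1 form. Capitals mark the 3 bases missing from the shorter Lpin1 form and the 5 bases missing when Trim63 reads used an acceptor further inside the exon.
Lpin1 exon of 99 bases (chr12:16571164-16571262, minus strand): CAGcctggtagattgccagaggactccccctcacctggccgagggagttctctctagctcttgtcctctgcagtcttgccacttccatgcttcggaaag
Trim63 exon of 23 bases (chr4:134325045-134325067, plus strand): agtgccaagcagctcatcaagag
Trim63 exon of 78 bases (chr4:134327705-134327782, plus strand): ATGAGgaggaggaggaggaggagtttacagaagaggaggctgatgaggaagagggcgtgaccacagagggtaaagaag

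Promoter windows of 250 bases before the start site are shown for Trim63 and for the Sgk1 starts that most reads used. Capitals mark every match on either strand to 4 short motifs. The first is AGAACA, 1 arm of the glucocorticoid receptor site. In the full palindrome of that site the arm is followed by 3 bases of any kind and by its own reverse complement. The others are the FOXO motif TGTTTAC, the E-box (a palindrome written CACGTG) and the TATA box (TATAAA).
Trim63 promoter (chr4:134314870-134315119, plus strand): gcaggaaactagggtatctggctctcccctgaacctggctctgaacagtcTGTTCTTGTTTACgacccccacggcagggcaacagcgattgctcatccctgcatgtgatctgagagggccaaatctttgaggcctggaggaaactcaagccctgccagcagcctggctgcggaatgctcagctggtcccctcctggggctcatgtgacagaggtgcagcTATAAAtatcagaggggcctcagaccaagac
Sgk1 upstream promoter (chr10:21993640-21993889, plus strand): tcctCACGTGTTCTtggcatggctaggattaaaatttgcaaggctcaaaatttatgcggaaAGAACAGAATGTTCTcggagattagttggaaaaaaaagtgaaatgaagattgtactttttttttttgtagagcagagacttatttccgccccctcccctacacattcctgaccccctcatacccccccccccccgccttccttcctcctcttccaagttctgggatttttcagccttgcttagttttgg
Sgk1 main promoter (chr10:21994416-21994665, plus strand): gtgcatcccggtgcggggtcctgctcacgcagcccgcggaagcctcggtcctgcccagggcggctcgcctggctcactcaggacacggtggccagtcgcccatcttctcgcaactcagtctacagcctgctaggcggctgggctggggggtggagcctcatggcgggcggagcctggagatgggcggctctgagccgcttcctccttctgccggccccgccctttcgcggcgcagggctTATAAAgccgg

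Reads of the 10 genes summed to 2366 in replicate 1 and 609 in replicate 2, or 0.190% and 0.0550% of the reads of annotated genes. Levels are given as CPM, the share of a gene in all annotated-gene reads times 1000000. Each long read was counted once whatever its length, so levels were not divided by length. Whether long and short transcripts were read equally well within a library was not tested. By mean CPM over both libraries the order was Cebpb (376 ± 204 CPM, SD, n = 2), Tsc22d3 (222 ± 153), Sgk1 (143 ± 145), Trim63 (129 ± 83.9), Arrdc2 (111 ± 141), Cebpd (83.4 ± 84.7), Gadd45g (82.7 ± 60.8), Lpin1 (31.7 ± 32.1), Fbxo32 (23.7 ± 22.0) and Depp1 (20.2 ± 24.7). No neighbours in this order differed by more than the larger of their SDs. Cebpb and Tsc22d3 were the highest and Depp1 the lowest in each library, while Arrdc2 was the fourth of 10 in replicate 1 and the seventh in replicate 2. In this bulk tissue, fewer cells of a type and less RNA per cell cannot be told apart.

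**Figure D1:**
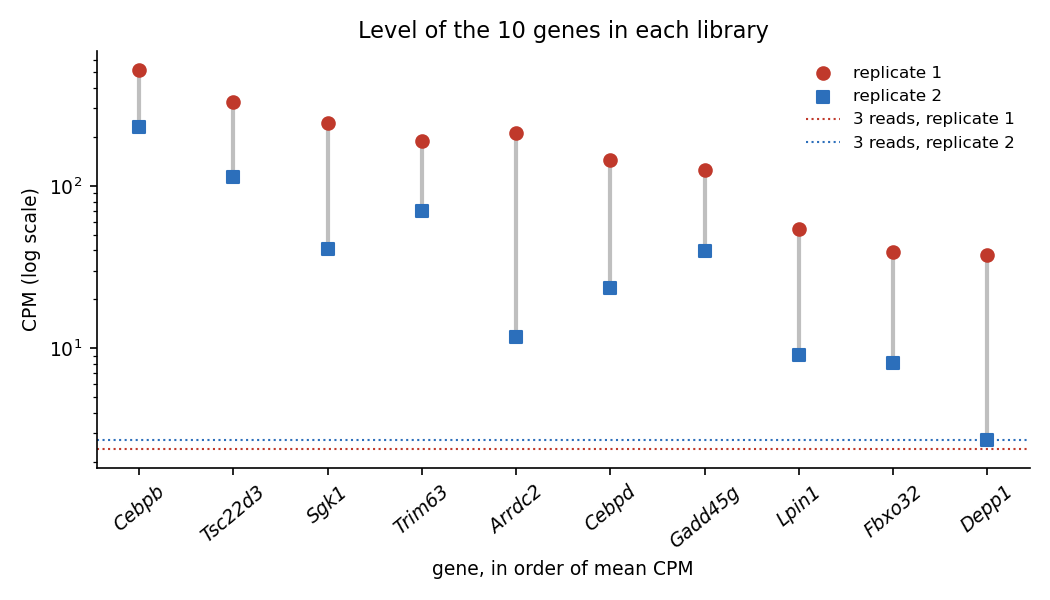
Level of each gene as CPM on a log axis, with a circle for replicate 1, a square for replicate 2 and dotted lines at 3 reads, the most that a count of 0 allows. Every circle lies above its square, from 520 against 231 CPM for Cebpb to 37.6 against 2.71 CPM for Depp1.

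All 10 genes were higher in replicate 1, and 9 of 10 were at least 2-fold higher. Over all 8973 genes, 12.9% were at least 2-fold higher in replicate 1 and 17.9% in replicate 2. The rule used this contrast, so nothing is read from the members' count. Ratios are log2 ratios of replicate 1 to replicate 2 on the TMM scale with a prior count of 0.5, and their intervals are exact 95% binomial intervals that cover counting error only. The median ratio was 2.09 over the 10 genes and -0.01 over all genes tested. At least 4-fold higher in replicate 1 were 5 genes, Arrdc2, Depp1, Cebpd, Sgk1 and Lpin1, and those 5 had the lower end of the interval past 2-fold.

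Transcript length moved with the ratio across all genes. Weighted by reads, all models, those of spike-ins and unannotated loci among them, averaged 2284 bases in replicate 1 and 1484 in replicate 2. In the 217 genes up to 500 bases long the median log2 ratio was -1.80. It was -0.41 for the 2269 genes from 1000 to 2000 bases, 0.25 for the 3848 from 2000 to 4000 bases and 0.48 for the 1872 above that. Of the 10 genes, Cebpb, Trim63, Depp1 and Gadd45g fall in the class of 1000 to 2000 bases, where 3.17% of genes were at least 2-fold higher in replicate 1. Arrdc2, Sgk1, Cebpd and Tsc22d3 fall in that of 2000 to 4000 bases (14.99%), and Fbxo32 and Lpin1 are longer (26.7%). With the running median over genes of like length subtracted, all 10 genes had a ratio past 2-fold and their median was 1.85. Against this, 8.45% of all genes were then at least 2-fold higher in replicate 1 and 11.2% in replicate 2.

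**Figure D2:**
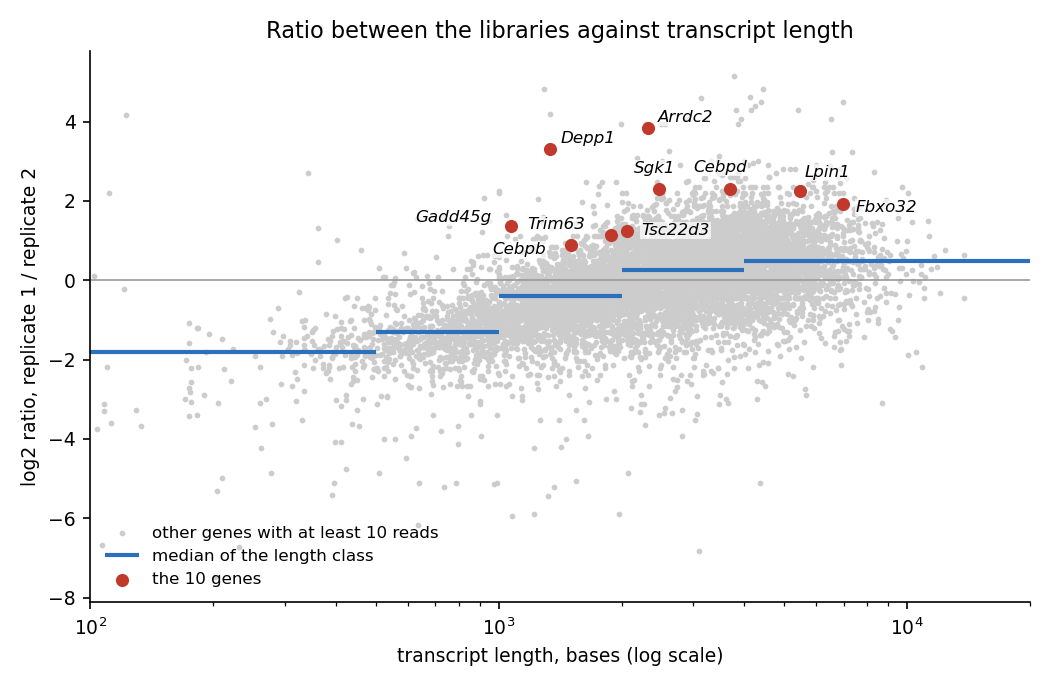
Log2 ratio of replicate 1 to replicate 2 against transcript length in bases (log axis), with small points for genes of at least 10 reads, red points for the 10 genes and bars for the median of each length class. The class medians run from -1.80 to 0.48 and each red point lies above the bar of its class; 10 genes outside 100 to 20000 bases are not drawn.

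Other measures of the libraries differed as well. Models with a full annotated or unannotated splice chain made up 89.1% and 80.6% of gene reads in the order of the replicates, and the class of unspliced overlap with a gene held 2.07% and 6.49%. Among reads of the 10 genes, full splice chains held 93.1% and 89.0%. This pooled share includes Cebpb and Cebpd, read almost only as single exons, which stood at 100% in both libraries. By gene, the shares were 94.4% and 81.0% for Tsc22d3, 91.1% and 77.9% for Trim63 and 89.2% and 77.8% for Sgk1. Gadd45g (94.9% and 86.4%), Lpin1 (36.8% and 30.0%) and Arrdc2 (93.2% and 92.3%) were also lower in replicate 2. Fbxo32 (69.4% and 77.8%) and Depp1 (93.6% and 100%) went the other way. Markers of some other cell types also differed, and those of others did not differ clearly. The 5 fibroblast markers summed to 7980 and 3454 CPM, mostly the collagen genes Col1a1 (4801 and 1522 reads, log2 ratio 1.198) and Col3a1 (4665 and 1881, 0.85). Only Col1a1 of the 5 was at least 2-fold higher in replicate 1, and Dcn (-0.21), Lum (-0.17) and Pdgfra (-0.18) had ratios below 0. The 5 endothelial markers summed to 270 and 164 CPM (4 of 5 at least 2-fold higher in replicate 1). The 6 macrophage and leukocyte markers summed to 74.5 and 61.5 CPM, with Ptprc at 0 reads in replicate 2. The 3 of these with at least 10 reads, Csf1r (-0.08), C1qa (-0.25) and Lyz2 (-0.002), were less than 2-fold apart. The 4 Schwann cell markers summed to 310 and 1872 CPM, all at least 2-fold higher in replicate 2. The 3 satellite cell markers summed to 40.04 and 18.98 CPM, mostly Cdh15 (43 and 19 reads, 0.70), which was less than 2-fold apart. The 3 red cell markers summed to 1441 and 1263 CPM. Of these, Alas2 (1.76) was at least 2-fold higher in replicate 1, and Hba-a1 (-0.27) and Hbb-bs (0.20) were less than 2-fold apart. The 4 adipocyte markers summed to 8.81 and 18.98 CPM with Lep at 0 in both libraries and Plin1 at 0 in replicate 2. The higher sum in replicate 2 came from Cfd (4 and 18 reads), while Adipoq (5 and 3) and Plin1 (2 and 0) went the other way. The 4 neutrophil markers held 1 read and 0 reads, with S100a8, S100a9 and Camp at 0 in both. The part of transcript length, splice class and cell markers in the ratios of the 10 genes was not tested.

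Both C/EBP transcription factor genes among the 10 had more reads in replicate 1. Cebpb (ENSMUSG00000056501.3, chr2:167688915-167690418, plus strand), C/EBP beta, had 649 reads (520 CPM) in replicate 1 and 256 reads (231 CPM) in replicate 2. It had the most reads of the 10 genes in both libraries and the smallest ratio, 0.88 (95% interval 0.67 to 1.10), or 1.84-fold. With the length trend removed its ratio was 1.32, outside that interval. Cebpd (ENSMUSG00000071637.5, chr16:15887286-15891031, plus strand), C/EBP delta, had 179 reads (143 CPM) and 26 reads (23.5 CPM). Its ratio was 2.30 (1.73 to 2.98), or 4.93-fold, and 1.89 with the length trend removed. Cebpb was read as 1 single-exon model in both libraries. Cebpd was likewise read as a single exon, apart from 3 of its 179 reads in replicate 1 that matched an annotated 2-exon model.

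**Figure D3:**
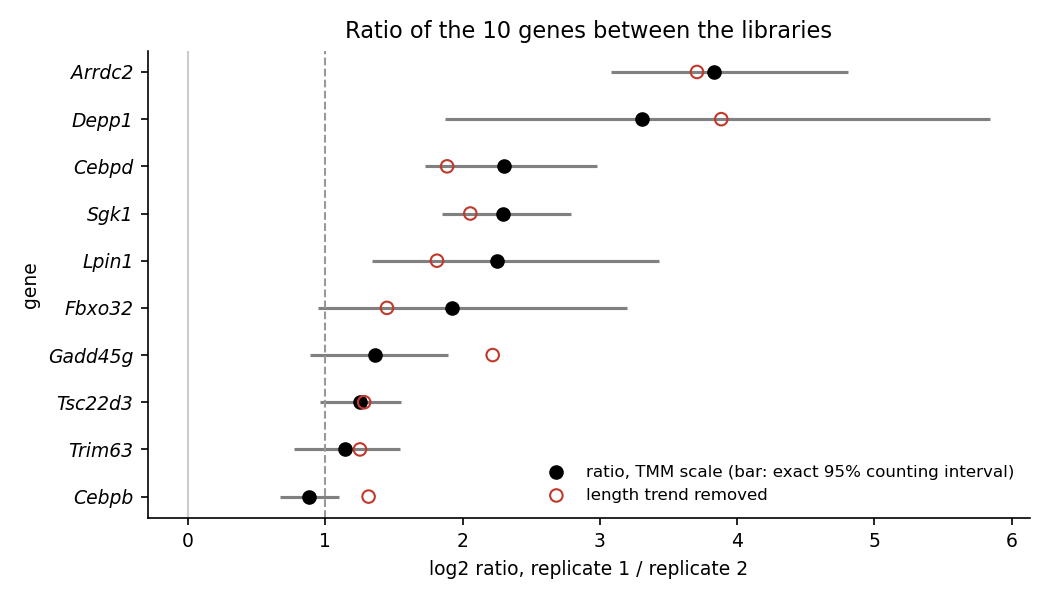
Log2 ratio of replicate 1 to replicate 2 for each gene, as a filled circle with its exact 95% counting interval and as an open circle after the length trend was removed. All filled circles lie above 0, from 0.88 for Cebpb to 3.83 for Arrdc2; the dashed line marks 2-fold.

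Sgk1 and Tsc22d3 are direct targets of the glucocorticoid receptor in many tissues. Sgk1 (ENSMUSG00000019970.15, chr10:21882184-21999903, plus strand), a kinase related to Akt that acts on ion transport and FOXO factors, had 306 reads (245 CPM) in replicate 1 and 45 reads (40.7 CPM) in replicate 2. Its ratio was 2.29 (1.85 to 2.79), or 4.90-fold, and 2.06 with the length trend removed. Tsc22d3 (ENSMUSG00000031431.13, chrX:140539528-140600659, minus strand) encodes GILZ, a leucine zipper protein that restrains inflammatory transcription. It had 413 reads (331 CPM) and 126 reads (114 CPM), a ratio of 1.25 (0.96 to 1.55) or 2.38-fold. The length trend left Tsc22d3 at 1.28.

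Reads of Sgk1 that reached a first exon used mainly the main start printed above. It took 238 of 273 such reads in replicate 1, or 87.2% with a Wilson interval of 82.7 to 90.6%, and 27 of 35 in replicate 2, or 77.1% (61.0 to 87.9%). The upstream start took 29 reads (10.6%, 7.50 to 14.8%) and 8 reads (22.9%, 12.1 to 39.0%). The far upstream start took 6 reads and 0 reads. For each start the intervals of the libraries overlap. As ratios, the main start stood at 2.66 (2.10 to 3.31) and the upstream start at 1.34 (0.23 to 2.74), again with overlapping intervals. Reads that began inside the gene and reached none of these first exons were 32 of 305 (10.5%) and 10 of 45 (22.2%). Loci on the other strand of Sgk1 held 36 and 22 reads, which the tables keep apart from the gene.

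Tsc22d3 reads were split between the proximal start of the shorter GILZ and the distal start of the longer form, whose donor sites lie 55282 bases apart. The proximal exon was joined to the shared exon in 248 of 400 reads in replicate 1 (62.0%, 57.2 to 66.6%) and 47 of 106 reads in replicate 2 (44.3%, 35.3 to 53.8%). The distal exon was joined in 119 reads (29.8%, 25.5 to 34.4%) and 51 reads (48.1%, 38.8 to 57.5%). The intervals of the libraries do not overlap for either form, with the proximal form the more used in replicate 1 and both forms near equal in replicate 2. The proximal form had a ratio of 1.93 (1.49 to 2.42), or 3.81-fold, and the distal form 0.76 (0.28 to 1.27), or 1.69-fold. An internal start took 29 and 8 reads (7.25% and 7.55%), and other exons 4 and 0 reads. The gene's ratio of 1.25 thus lies between those of its main starts. Of the distal reads, 108 and 47 were spliced on to an exon further upstream, which was the annotated one in 2 reads of replicate 1 and 0 of replicate 2. The most used unannotated donor, at position 140598917 of chromosome X, took 49 (45.4%) and 26 reads (55.3%). Those at 140598878 and 140599400 took 31 and 11 reads and 23 and 10 reads. Loci on the other strand of Tsc22d3 held 6 and 8 reads.

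**Figure D4:**
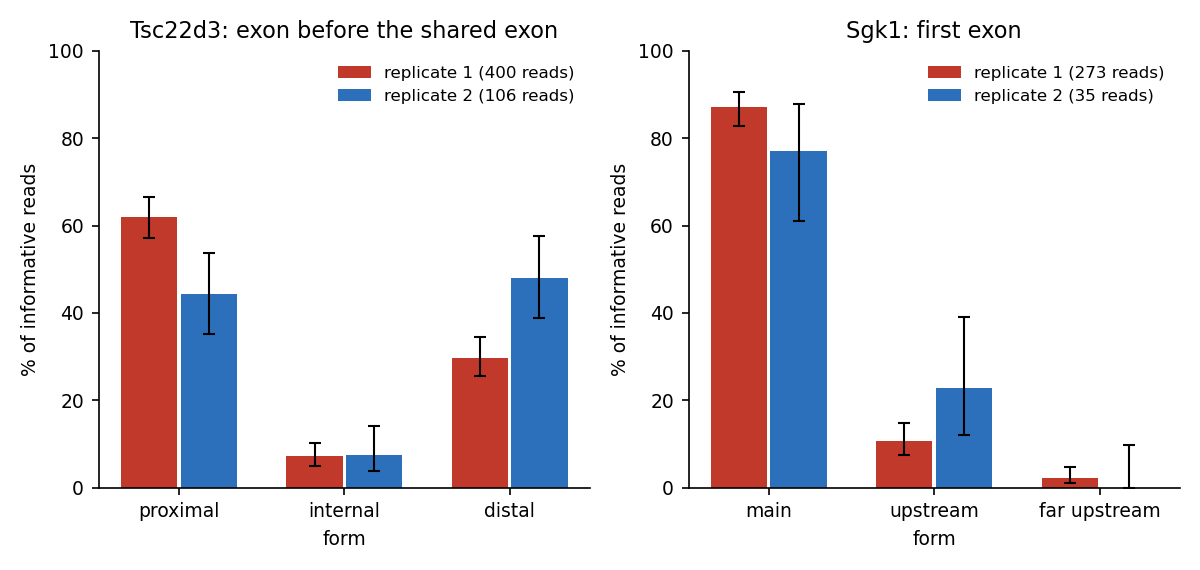
Share of informative reads (%) in each form of Tsc22d3, by the exon joined to the shared exon, and of Sgk1, by first exon, with red bars for replicate 1, blue bars for replicate 2 and 95% Wilson intervals. The distal Tsc22d3 bar is 29.8% in replicate 1 and 48.1% in replicate 2, and the bar of the upstream Sgk1 start is 10.6% and 22.9%.

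Arrdc2, Depp1 and Gadd45g are stress-responsive genes of different families. Arrdc2 (ENSMUSG00000002910.11, chr8:70835129-70839720, minus strand), an alpha-arrestin of the family that links membrane proteins to ubiquitin ligases, had 263 reads (211 CPM) in replicate 1 and 13 reads (11.8 CPM) in replicate 2. Its ratio of 3.83 (3.08 to 4.81), or 14.2-fold, was the largest of the 10, and 21 of the 8973 genes had a larger one. With the length trend removed it was 3.71. Depp1 (ENSMUSG00000048489.12, chr6:116650609-116652794, plus strand), a FOXO-induced regulator of autophagy, had 47 reads (37.6 CPM) and 3 reads (2.71 CPM). Its ratio of 3.30 (1.88 to 5.84), or 9.88-fold with an interval of 3.67 to 57.3, rests on 3 reads in replicate 2. The trend-removed ratio of Depp1, 3.88, was the largest of the 10. Gadd45g (ENSMUSG00000021453.2, chr13:51846678-51848468, plus strand), a stress-induced protein that acts on p38 and JNK signalling, had 157 reads (126 CPM) and 44 reads (39.8 CPM). Its ratio was 1.37 (0.89 to 1.89), or 2.58-fold, and 2.22 with the length trend removed, outside the interval.

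Most reads of these 3 genes followed 1 annotated chain. The 8-exon annotated chain of Arrdc2 took 209 of 263 reads (79.5%, 74.2 to 83.9%) and 10 of 13 (76.9%, 49.7 to 91.8%). The first intron was kept in 17 of 249 informative Arrdc2 reads (6.83%) and 1 of 12. An acceptor 19 bases further into exon 6, a shift that is no multiple of 3, was used in 8 of 254 and 1 of 12 reads, and one 3 bases into the last exon in 9 of 258 and 0 of 12. The main annotated form of Depp1 took 35 of 44 spliced reads (79.5%, 65.5 to 88.9%) in replicate 1 and all 3 in replicate 2. An annotated form whose second exon starts 3 bases further in took the other 9. The 4-exon annotated chain of Gadd45g took 146 of 157 reads (93.0%, 87.9 to 96.04%) and 36 of 44 (81.8%, 68.0 to 90.5%). Unspliced Gadd45g reads were 4 (2.55%, 1.00 to 6.37%) and 6 (13.6%, 6.40 to 26.7%), with intervals that only just do not overlap. Over all genes the unspliced class held 2.07% and 6.49%, each inside the Gadd45g interval of its library. An acceptor 7 bases further into exon 2 was used by 2 reads in each library. The shares of the main annotated chains of these 3 genes overlap between the libraries in their intervals.

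Both muscle ubiquitin ligases were higher in replicate 1. Trim63 (ENSMUSG00000028834.13, chr4:134315120-134329629, plus strand), or MuRF1, which targets thick-filament proteins, had 235 reads (188 CPM) in replicate 1 and 77 reads (69.6 CPM) in replicate 2. Its ratio was 1.15 (0.77 to 1.54), or 2.21-fold, and 1.25 with the length trend removed. Fbxo32 (ENSMUSG00000022358.7, chr15:58175879-58214932, minus strand), or atrogin-1, the substrate-binding subunit of an SCF ligase, had 49 reads (39.2 CPM) and 9 reads (8.13 CPM). Its ratio was 1.92 (0.95 to 3.20), or 3.79-fold, and 1.45 with the length trend removed. Fbxo32 had fewer reads than Trim63 in both libraries and a longer transcript, 6976 against 1885 bases.

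The annotated Trim63 chain of 9 exons took 196 of 235 Trim63 reads (83.4%, 78.1 to 87.6%) and 56 of 77 (72.7%, 61.9 to 81.4%). The first intron was spliced in 215 of 235 reads (91.5%, 87.2 to 94.4%) and 58 of 77 (75.3%, 64.7 to 83.6%), and these intervals do not overlap. Reads without that junction were 20 and 19, a ratio of -0.39 whose interval (-1.37 to 0.60) takes in both directions. Reads with the junction had a ratio of 1.42 (1.01 to 1.88). The 23-base exon printed above was included in 211 of 221 informative reads (95.5%, 91.9 to 97.5%) and 61 of 62 (98.4%, 91.4 to 99.7%). In 9 reads and 1 read it was skipped together with a donor 18 bases further on, a net loss of 5 bases, which is no multiple of 3. The acceptor 5 bases inside the 78-base exon was used by 5 of 218 and 1 of 63 reads. Fbxo32 was read to its first intron in 34 of 49 reads (69.4%, 55.5 to 80.5%) and 7 of 9 (77.8%, 45.3 to 93.7%), all of them the annotated 9-exon chain. A further 12 and 2 reads were unspliced.

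Lpin1 (ENSMUSG00000020593.15, chr12:16535669-16610966, minus strand) encodes lipin-1, a phosphatidate phosphatase of fat synthesis that also acts as a transcriptional coactivator. It had 68 reads (54.5 CPM) in replicate 1 and 10 reads (9.04 CPM) in replicate 2, a ratio of 2.25 (1.34 to 3.43) or 4.75-fold. With the length trend removed the ratio was 1.81. Lpin1 was the least fully read of the 10 genes, with full splice chains in 25 of 68 reads (36.8%, 26.3 to 48.6%) and 3 of 10 (30.0%, 10.8 to 60.3%). The exon with the start codon was reached by 30 and 3 reads. Of those that went on to an exon further upstream, 13 of 22 reads in replicate 1 came from an annotated first exon, 8 from an unannotated exon beyond the annotated end of the gene and 1 from another, against 2, 0 and 0 in replicate 2. The 99-base exon printed above was used in full in 37 of 46 reads in replicate 1 (80.4%, 66.8 to 89.4%) and 2 of 3 in replicate 2. The form that lacks its first 3 bases, CAG, took 7 reads and 1 read, and 2 reads and 0 reads skipped the exon. At this depth no difference in these forms between the libraries was detectable.

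The promoter table, with windows from 250 bases before to 50 after a start, held 15 windows for 8 of the 10 genes; Cebpd and Fbxo32 were not matched. The full glucocorticoid receptor palindrome was found in 3 of 32851 windows of the table (0.00913%), and 1 of these is that of the upstream Sgk1 start, with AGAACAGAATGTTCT from position -189. A full palindrome also counts as 2 single arms. A single arm was found in 6 of the 15 windows, of Lpin1, Sgk1, Trim63 and Tsc22d3, against 19% of all windows. The Tsc22d3 arm lies in the window of the annotated exon upstream of the distal exon. That exon was used by 2 reads in replicate 1 and 0 in replicate 2. The Lpin1 arm lies in the window of the annotated start at position 16610966 of chromosome 12. Lpin1 reads that reached a first exon were counted at another annotated start or at unannotated exons. Only the Trim63 window among the 15 held the FOXO motif (3.65% of all windows), at position -194 and directly after a receptor arm at -200. The arm joined directly to the FOXO motif was searched after it was seen in that window, so its match there was fixed in advance. It was found in 1 of 32851 windows, that of Trim63, and no rarity is read from this count. Adjoining sites for these factors in the Trim63 promoter are known from published work. The E-box was found in windows of Gadd45g and Sgk1 (7.15% of all windows), where that of Sgk1 overlaps a receptor arm, and TATAAA in 5 of 15 windows, of Cebpb, Gadd45g, Sgk1 and Trim63 (13.6%). The palindromic C/EBP motif (0.183% of all windows) and the palindromic CREB motif (1.79%) were found in 0 of 15. The main Sgk1 start, used by most Sgk1 reads, had TATAAA at -11 and no receptor arm in its window, and the palindrome lies before the less used upstream start. A match is a run of letters and not a measured binding site.

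Other genes of the glucocorticoid pathway were mostly higher in replicate 1. Of 29 listed genes, 28 had a read, 22 had at least 10 reads, and 14 of these were at least 2-fold higher in replicate 1 (63.6%, against 12.9% of all genes) and 0 in replicate 2 (against 17.9%). The list was chosen with results of these libraries known, so its direction is not independent evidence. Its median log2 ratio was 1.05, and 21 of 22 ratios were above 0. With the length trend removed 10 of the 22 were at least 2-fold higher in replicate 1 (against 8.45% of all genes). In replicate 2 it was 0 (against 11.2%), and the list median was 0.95. Pdk4, the kinase that shuts off pyruvate dehydrogenase in fasting, had 1634 and 136 reads (log2 ratio 3.12, 2.88 to 3.39), more reads than any of the 10 genes in replicate 1. The receptor gene Nr3c1 itself had 34 and 11 reads (1.13, 0.15 to 2.30). The receptor's co-chaperone Fkbp5 had 13 and 3 reads (1.49), the mTOR inhibitor Ddit4 15 and 2 (2.17) and the zinc finger gene Zbtb16 25 and 4 (2.04). Klf9 had 220 and 66 reads (1.27), Klf15 101 and 33 (1.14), the phosphatase gene Dusp1 120 and 36 (1.26) and Errfi1 131 and 46 (1.04). Foxo1 had 20 and 5 reads (1.44), Sesn1 43 and 13 (1.23), Cdkn1a 21 and 7 (1.06), Per1 15 and 5 (1.04) and Txnip 70 and 25 (1.01). The chaperone genes Hsp90ab1 (873 and 411 reads, 0.63) and Fkbp4 (197 and 123 reads, 0.22) were less than 2-fold apart.

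Other genes of muscle atrophy had ratios in both directions, as genes in general did. Of 26 listed genes, 25 were tested, of which 6 were at least 2-fold higher in replicate 1 (24.0%, against 12.9% of all genes) and 4 in replicate 2 (against 17.9%), with a median of 0.11. After removal of the length trend, 5 were at least 2-fold higher in replicate 1 (against 8.45% of all genes) and 4 in replicate 2 (against 11.2%). The ubiquitin gene Ubb had 2717 and 2728 reads (-0.46). Among those higher in replicate 1 were the ubiquitin ligase genes Nedd4 (352 and 115 reads, 1.15), Trim32 (33 and 6, 1.91) and Fbxo21 (29 and 7, 1.52), the autophagy receptor gene Sqstm1 (264 and 88, 1.12) and Hdac4 (33 and 6, 1.91). Higher in replicate 2 were the autophagy gene Gabarapl1 (95 and 323 reads, -2.22), the translation repressor Eif4ebp1 (113 and 212, -1.36), the deubiquitinase Usp14 (51 and 91, -1.29) and the ligase Cblb (2 and 8, -2.22). Map1lc3b (308 and 281 reads, -0.33) and Bnip3 (287 and 194 reads, 0.11), both of autophagy, were less than 2-fold apart. The difference between these lists was not tested.

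Paralogs of the 10 genes were listed as well. Of 19 listed, 15 were tested, with 3 at least 2-fold higher in replicate 1 (20.0%, against 12.9% of all genes), 0 in replicate 2 (against 17.9%) and a median of 0.35. The 3 were the alpha-arrestin genes Arrdc3 (99 and 26 reads, 1.45) and Txnip and the lipin gene Lpin3 (18 and 6 reads, 1.05). Of the 15 ratios, 9 were above 0 and 6 below. With the length trend removed 0 were at least 2-fold higher in replicate 1 (against 8.45% of all genes) and 1 in replicate 2 (against 11.2%). Trim54, a MuRF relative of Trim63, had 277 and 158 reads (0.35), and the Tsc22d3 relatives Tsc22d1 and Tsc22d4 had 88 and 42 reads (0.60) and 121 and 131 reads (-0.57).

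Immediate early genes, which respond to handling and many stimuli, were listed beside them. Of 15 genes, 11 were tested, and 5 were at least 2-fold higher in replicate 1 (45.5%, against 12.9% of all genes) and 1 in replicate 2 (against 17.9%), with a median of 0.81. After removal of the length trend, 5 were at least 2-fold higher in replicate 1 (against 8.45% of all genes) and 1 in replicate 2 (against 11.2%). Their median was then 0.53. The orphan receptor gene Nr4a1 had 84 and 13 reads (2.19), Btg2 31 and 7 (1.61), Klf4 25 and 4 (2.04) and Klf6 22 and 4 (1.86). The mRNA-decay factor gene Zfp36 had 10 reads and 0 reads, where 0 allows up to 3 reads. Atf3 had 3 and 8 reads (-1.74). Jund (286 and 280 reads, -0.43), Jun (32 and 13 reads, 0.81) and Ier2 (40 and 27 reads, 0.10) were less than 2-fold apart.

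**Figure D5:**
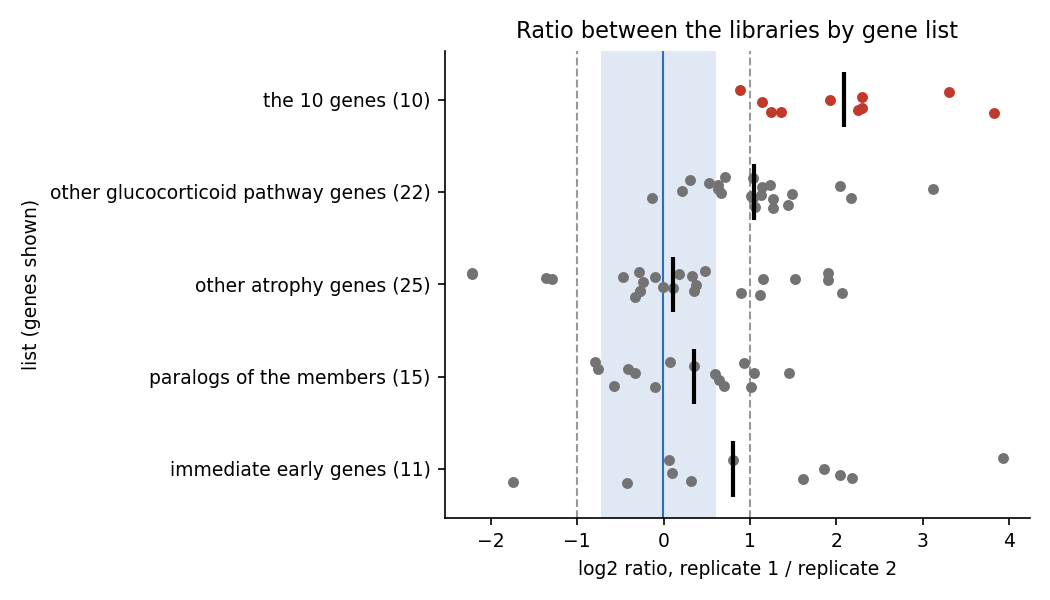
Log2 ratio of replicate 1 to replicate 2 for each tested gene (points, spread vertically at random) of the 10 genes and 4 lists, with black bars at list medians, the blue line at the median of all genes and the shaded band between their quartiles (-0.71 and 0.60). Medians are 2.09 for the 10 genes, 1.05 for other glucocorticoid pathway genes, 0.11 for other atrophy genes, 0.35 for paralogs and 0.81 for immediate early genes; dashed lines mark 2-fold. The point of Zfp36, with 0 reads in replicate 2, depends on the prior count.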

How the data were processed

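The data were long-read RNA-seq reads of 2 gastrocnemius libraries. Per the file headers, the deposited values are raw read counts per transcript model, without normalization, beside files with each model's exons on mm10 and GENCODE M21. TALON, which assigns long reads to models, is named in the attributes of those files. No source used here gives the aligner, the versions or the platform. The tables held 1316937 and 1204188 reads, of which annotated genes took 1248854 and 1106450. A read was worth 0.801 and 0.904 CPM, and a count of 0 allows up to 3 reads (2.40 and 2.71 CPM). No source used here mentions molecular identifiers, and intervals and floors cover counting error only.

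Counts were summed over all models of a gene. Spike-ins and unannotated loci, antisense loci among them, were left out of CPM. Ratios used TMM factors (edgeR 4.0.16, R 4.3.3) over all annotated genes with a read, a prior count of 0.5 and a minimum of 10 reads over both libraries. Intervals of ratios are Clopper-Pearson, conditional on the sum (scipy 1.17.1), and those of shares are Wilson, at 95%. The length trend is the running median over 501 genes nearest in length. Gene length is the read-weighted mean over full splice models, or over all models where there are none. Scripts were tested on simulated data. With 1 group and 1 library of each number, no test was made.

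Named genes are the 10 members, list genes at least 2-fold apart with at least 10 reads, and the 4 of each list with the highest mean CPM. The values of 1 atrophy list gene that this takes in are not reported here. The 10 genes, lists, tests and motifs were chosen with earlier results of these data known. Alternatives were scaling by the total, by DESeq2 1.42.0 size factors or by spike-ins, the length trend, full splice models, a prior of 2, minimums of 1 and 50 reads, and leaving out a library.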

Additional observations from a re-analysis of the deposited data

How the results depend on the processing

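All 60 ratios of the 10 genes under 6 alternatives (3 scalings, the length trend, full splice models, a prior count of 2) stayed above 0. They ran from 0.73 to 4.11, and 57 were at least 1. Outside their counting interval were Cebpb scaled by the total (1.17), by spike-ins (1.16) and with the length trend removed (1.32), and Gadd45g with the trend removed (2.22). TMM lies -0.28 (log2) from scaling by the total. The median of all genes was 0.27 by the total against -0.01 by TMM. Genes at least 2-fold higher in replicate 1 and replicate 2 were 12.9% and 17.9% by TMM, 20.5% and 12.3% by the total and 20.3% and 12.5% by spike-ins.

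Over all genes, 16.8% were at least 2-fold higher in replicate 1 and 16.4% in replicate 2 in full splice models. Those shares were 8.41% and 20.4% with at least 50 reads and 20.1% and 26.8% with at least 1 read. With the length trend removed they were 8.45% and 11.2%, and with a prior count of 2 they were 9.67% and 16.9%. The number of list genes tested can differ by setting, so the counts below are not shares. Counts of list genes at least 2-fold apart moved as follows. Glucocorticoid pathway genes higher in replicate 1 were 8 in full splice models and 7 with at least 50 reads, and 1 was higher in replicate 2 with at least 1 read. Atrophy genes higher in replicate 2 were 1 in full splice models, and those higher in replicate 1 were 3 with at least 50 reads. Paralogs higher in replicate 1 were 0 with the length trend removed, 1 with a prior count of 2 and 5 with at least 1 read. Paralogs higher in replicate 2 were 1 with the trend removed and 1 in full splice models. Immediate early genes higher in replicate 2 were 2 with at least 1 read and 0 with at least 50, and those higher in replicate 1 were 1 with at least 50. A minimum of 50 reads tests fewer genes and one of 1 read more; the cause of the other moves was not tested.

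No paired analysis was possible because the labels give a single group. With 2 libraries, leaving out 1 leaves the other's own values. Depp1, Fbxo32, Lpin1 and Arrdc2 had 3 to 13 reads in replicate 2, which limits their ratios and forms.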
